A study of Mus musculus with 9 samples.

Results

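The genes described are 9 members of the inflammasome and interleukin-1 system: *Nlrp3*, *Pycard*, *Casp1*, *Casp4*, *Gsdmd*, *Il1b*, *Il18*, *Il1rn*, and *Il1r2*. All 9 were found by symbol among the 31053 genes counted. An inflammasome is a protein platform that phagocytes assemble when a sensor such as NLRP3 meets signs of infection or damage. The adaptor ASC, encoded by *Pycard*, joins the sensor to caspase-1, which cuts the precursors of interleukin-1β and interleukin-18 into active cytokines and opens the pore protein gasdermin D. A receptor antagonist (*Il1rn*) and a decoy receptor (*Il1r2*) restrain interleukin-1 signaling, and neutrophils, monocytes, and macrophages are the marrow cells best known for these genes. Only mRNA was counted here, so neither cleavage nor secretion was seen.

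Femur bone marrow of 9 female mice at 9 to 10 weeks of age was sequenced with the 10x Chromium 3' chemistry, as 1 library per mouse. There were 3 New Zealand Black (NZB), 3 New Zealand White (NZW), and 3 NZBWF1 mice. NZBWF1 is the first generation of a cross of an NZW dam with an NZB sire and develops a lupus-like disease later in life, so the strains were compared before overt disease. The labels name no treatment and no engineered allele for any group, and all mice were bought and delivered together.

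Each cell was placed in a class by the presence of marker genes, none of which is among the 9 genes, and the class names end in "-like" because no protein was measured. Of 68444 barcodes called as cells, 39051 (57.1%) had at least 1000 unique molecular identifiers (UMIs, each standing for 1 captured transcript), at least 500 genes, and at most 10% mitochondrial UMIs. The kept cells held 8106539 to 18663189 UMIs per mouse, with a median of 2182 to 2536 UMIs per cell, and 3922 of them (10.0%) stayed unassigned. The top 10 genes of a class held 3 to 8 of its own markers, except in the plasma-cell-like class (1, beside immunoglobulin genes) and the conventional dendritic-like class (2), which held only 15 cells. Mature neutrophils carry little RNA: these limits kept 1859 mature neutrophil-like cells, and limits of 500 UMIs and 250 genes kept 8532, so values with cells from 500 UMIs are given beside those of this class. Levels are CPM, the UMIs of a gene scaled to a total of 1000000, from UMIs summed over the cells of a class in a mouse, and a mouse entered a class with at least 10 cells. Of 67883 barcode sequences, 557 (0.821%) occurred in more than 1 library.

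The sequences before the transcription start are shown for the 4 genes that had a strain difference called in full and without each mouse in turn, so that the reference sequence can be read beside the values (*Il1b* with cells from 500 UMIs, the others with cells from 1000 UMIs). Each is the 150 bases upstream of a RefSeq start site in the reference genome GRCm38.p6, 5′ to 3′ on the strand of the gene, and not the sequence of NZB or NZW. Capitals mark matches on either strand to letters bound by PU.1 (GAGGAA), the factor of myeloid cells, to those of C/EBP (TTGNGNAA), which acts in granulocytes and macrophages, and to the TATA box (TATAAA). The letters of NF-kB (GGG, any 2 bases, then TTTCC), the pathway that induces *Il1b* and *Nlrp3*, were also searched and had no match in these windows.
Nlrp3, second start site, chr11:59542536-59542685, plus strand: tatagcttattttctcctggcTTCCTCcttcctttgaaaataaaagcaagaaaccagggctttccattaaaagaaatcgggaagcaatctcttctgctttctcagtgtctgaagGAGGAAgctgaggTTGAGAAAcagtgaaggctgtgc
Pycard, chr7:127993868-127994017, minus strand: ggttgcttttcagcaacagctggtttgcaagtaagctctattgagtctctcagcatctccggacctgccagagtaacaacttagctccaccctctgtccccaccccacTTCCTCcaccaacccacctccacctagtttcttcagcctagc
Il1b, chr2:129371140-129371289, minus strand: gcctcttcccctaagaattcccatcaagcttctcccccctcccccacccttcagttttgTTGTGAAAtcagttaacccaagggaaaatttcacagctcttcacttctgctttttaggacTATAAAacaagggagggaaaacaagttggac
Il1r2, chr1:40085943-40086092, plus strand: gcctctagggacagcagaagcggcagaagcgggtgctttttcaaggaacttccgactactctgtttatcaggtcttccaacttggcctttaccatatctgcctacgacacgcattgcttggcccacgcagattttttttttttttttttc
The second *Nlrp3* window held 2 PU.1 matches and 1 C/EBP match, and *Pycard* held 1 PU.1 match. The first *Nlrp3* window (chr11:59541419-59541568), not shown, held none of the 4 motifs. *Il1b* held 1 C/EBP match and 1 TATA match, and *Il1r2* held none of the 4 motifs. Among all 32851 windows of this length, 14.5% held the PU.1 letters, 6.79% those of C/EBP, 7.57% the TATA box, and 0.925% the NF-kB letters. Of the 9 genes, 8 had a start site in this table (12 sites in all) and *Gsdmd* did not. Of the sites not shown, the 2 overlapping ones of *Casp4* held the same 2 NF-kB matches, 1 of *Il1rn* held 1 NF-kB match, another of *Il1rn* 1 C/EBP match, and that of *Casp1* 1 PU.1 match. A match is a run of letters and not a bound site, and no binding was measured.

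The 9 genes lay in different cells of the marrow. *Pycard* stood at a mean of 45.6 CPM or more in each of 18 classes, *Casp1* had its highest means among monocytes, *Nlrp3* among monocytes and mature neutrophils in an order that turned with the limits on cells, *Il1b*, *Il1rn*, and *Il1r2* were highest in mature neutrophils, and *Il18* stood out in the few macrophages. Each gene was followed through its classes in the order of its mean log2(CPM + 10), over classes with at least 6 mice, and neighbors in that order were compared within the mouse with a two-sided exact permutation test of signs. The order itself sets the direction of these differences. Of 144 such pairs, 21 (14.6%) had an exact p under 0.05, against 9.29% of 177264 pairs over all genes, and with the Benjamini-Hochberg adjustment 0 pairs passed, over these genes or over all. The smallest p that 9 mice allow is 0.00391, so the unadjusted values are given. Some pairs given below are not neighbors in the order. These are *Nlrp3* in classical against dividing monocyte-like cells and *Pycard* in classical monocyte-like against mature neutrophil-like cells. The others are *Il1b* in mature against immature neutrophil-like and classical monocyte-like cells, and *Il18* in macrophage-like cells. They were chosen with the order known, and the share of 9.29% does not cover them.

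**Figure D1:**
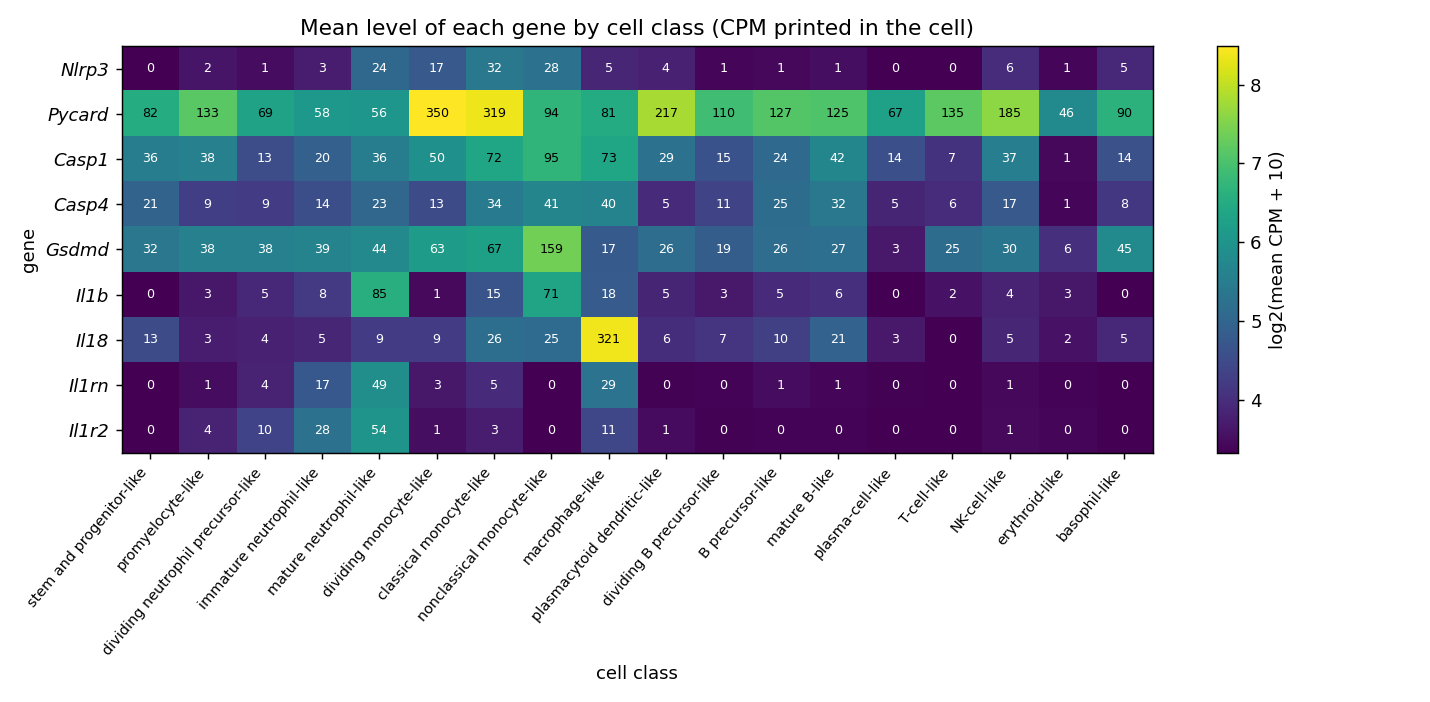
Mean level of each of the 9 genes (rows) in each cell class (columns) over the mice with at least 10 cells of the class; the number printed is CPM and the color is log2(mean CPM + 10), to be read along a row. *Il1b* has its highest mean in mature neutrophil-like cells (85.5 CPM), *Il18* in macrophage-like cells (321.4 CPM), and *Pycard* in dividing monocyte-like cells (350.2 CPM).

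*Nlrp3*, the sensor (chr11:59541568-59566956, mm10, plus strand), had 31.8 ± 17.3 CPM (SD, n = 9) in classical monocyte-like cells. Mature neutrophil-like cells followed at 23.5 ± 15.1 CPM and dividing monocyte-like cells at 17.3 ± 7.12 CPM. It was higher in classical monocyte-like than in mature neutrophil-like cells in 8 of 9 mice (mean log2 difference 0.35 ± 0.33 SD, exact p = 0.0195) and than in dividing monocyte-like cells in 8 of 9 (0.54 ± 0.36, exact p = 0.00781). Mature neutrophil-like and dividing monocyte-like cells were not told apart (0.19 ± 0.50, exact p = 0.289). The order of the first 2 classes turned when cells from 500 UMIs entered, with 47.3 ± 23.9 CPM in mature neutrophil-like and 32.5 ± 18.5 CPM in classical monocyte-like cells. Nonclassical monocyte-like cells stood at 28.5 ± 33.8 CPM (n = 8), from only 7 UMIs. Immature neutrophil-like cells had 3.14 ± 1.75 CPM, and no UMI was counted in T-cell-like, plasma-cell-like, or stem and progenitor-like cells. The patterns most like it over 18 classes were those of *Nat8l* (r = 0.899), *Pik3r6* (0.895), and *Fosl2* (0.889), among 6535 genes that reached 50 CPM in a class. Such an r describes means of the same libraries and of classes of unequal depth.

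*Pycard*, the adaptor (chr7:127989708-127993867, minus strand), reached 350.2 ± 76.3 CPM in dividing monocyte-like and 319.4 ± 110.9 CPM in classical monocyte-like cells, a pair that was not told apart (0.17 ± 0.31, exact p = 0.129). Plasmacytoid dendritic-like cells followed at 216.9 ± 18.1 CPM, lower than classical monocyte-like cells in 8 of 9 mice (0.47 ± 0.46, exact p = 0.0117). NK-cell-like cells had 185.3 ± 47.9 CPM, T-cell-like cells 135.3 ± 36.4 CPM, and promyelocyte-like cells 133.0 ± 28.1 CPM. Within the neutrophil lineage the level was lower at each later stage by its mean, from 69.3 ± 12.3 CPM in dividing precursors to 57.5 ± 5.86 in immature and 55.8 ± 18.6 in mature cells. The first of these steps went the same way in 9 of 9 mice (0.22 ± 0.21, exact p = 0.00391), and the second was not told apart (0.09 ± 0.43, exact p = 0.555). These values are for cells from 1000 UMIs. Down to 500 UMIs the mean was 54.0 ± 5.36 CPM in immature and 30.9 ± 9.67 CPM in mature neutrophil-like cells. Mature neutrophil-like cells stood below classical monocyte-like cells in 9 of 9 mice (2.31 ± 0.82, exact p = 0.00391). The RNA of near-empty droplets held 85.8 CPM of *Pycard*, a level above that of several classes. Free RNA was estimated at 0.587% to 1.17% of the UMIs of a median cell over all classes, a share not estimated per class, and its part in the level of a class below 85.8 CPM was not tested. *Zdhhc21* (r = 0.891), *Ebp* (0.864), and *Tmsb10* (0.839) had the patterns most like it.

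*Casp1* (chr9:5298517-5307265, plus strand), which encodes the caspase of the inflammasome, had its highest means in nonclassical monocyte-like cells at 95.0 ± 45.5 CPM (n = 8), in macrophage-like cells at 72.8 ± 25.3 CPM (n = 4), and in classical monocyte-like cells at 71.7 ± 12.2 CPM (n = 9). The first and the last of these were not told apart (0.09 ± 1.23, exact p = 0.875). It was higher in classical than in dividing monocyte-like cells (50.2 ± 13.4 CPM) in 8 of 9 mice (0.46 ± 0.37, exact p = 0.00781). Its neighbor *Casp4* (chr9:5308828-5336783, plus strand), the caspase that senses cytosolic lipopolysaccharide, had 34.3 ± 5.26 CPM in classical monocyte-like cells, 32.1 ± 18 in mature B-like cells, and 22.7 ± 8.78 in mature neutrophil-like cells. Its 41.3 ± 43.4 CPM in nonclassical monocyte-like cells rested on 10 UMIs. The pattern most like that of *Casp4* was *Casp1* itself (r = 0.801), before *Fcho2* (0.788) and *Apobec1* (0.783), while *Casp1* was most like *Tpd52* (0.851), *Trafd1* (0.845), and *Arap1* (0.844). *Gsdmd* (chr15:75862327-75867408, plus strand), the pore protein that both caspases cut, was highest in nonclassical monocyte-like cells at 159.1 ± 67.3 CPM, from 40 UMIs. That was above classical monocyte-like cells (67.0 ± 18.4 CPM) in 7 of 8 mice (1.02 ± 0.72, exact p = 0.0156). It stayed between 37.7 and 44.1 CPM by its mean from promyelocyte-like to mature neutrophil-like cells with 1000 UMIs or more, but mature neutrophil-like cells had 52.8 ± 8.09 CPM when cells from 500 UMIs entered. *Col4a3bp* (r = 0.899), *Diaph2* (0.890), and *Ap1s2* (0.880) had the patterns most like it.

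*Il1b* (chr2:129364570-129371139, minus strand) was the cytokine of the mature neutrophils. It had 85.5 ± 35.2 CPM there, against 8.41 ± 4.79 in immature neutrophil-like, 5.0 ± 3.81 in dividing neutrophil precursor-like, and 15.4 ± 18.1 in classical monocyte-like cells. The RNA of near-empty droplets held a mean of 35.0 CPM of *Il1b* (14.8 to 63.3 over the libraries). That is above the means of these other classes. Free RNA was estimated at only 0.587% to 1.17% of the UMIs of a median cell over all classes, a share not estimated per class. The part of free RNA in the *Il1b* level of each class was not tested. Mature neutrophil-like cells were above immature ones (2.33 ± 0.33) and above classical monocyte-like cells (2.07 ± 0.88) in 9 of 9 mice, each with exact p = 0.00391. Nonclassical monocyte-like cells, at 70.8 ± 54.6 CPM from 21 UMIs, were not told apart from mature neutrophil-like cells (0.64 ± 1.19, exact p = 0.172). At least 1 *Il1b* UMI was found in 11.3% of mature neutrophil-like cells (median 1817 UMIs) and in 0.350% of T-cell-like cells (median 1300 UMIs), and in cells thinned to 1000 UMIs the shares were 7.63% and 0.242%. The 3 genes most like it over the classes were *Gm5150* (r = 0.899), *1600010M07Rik* (0.866), and *Fcgr4* (0.866). An antisense gene, *Il1bos*, overlaps *Il1b*, and it was not stated whether counting used the strand.

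The level of *Il1b* in mature neutrophil-like cells varied with the UMIs of the cell. In cells of 500 to 750 UMIs it averaged 896.5 CPM (lowest mouse 345.5, highest 2012), in cells of 750 to 1000 UMIs 361.5 CPM, in cells of 1000 to 1500 UMIs 99.7 CPM, and from 1500 UMIs on 66.2 CPM (22.1 to 109.1). *Nlrp3* fell along the same bands from 96.0 to 18.2 CPM and *Il1rn* from 149.4 to 44.6 CPM, while *Pycard* went from 12.0 to 56.0 CPM. *Casp1* stayed between 34.1 and 37.6 CPM. The bands hold the 8532 cells kept with the lower limits, between 1635 and 2436 per band. They are a description without a test, since the UMIs of a cell both define the band and divide the level. With cells from 500 UMIs, the *Il1b* mean of the class was 249.6 CPM and that of *Il1rn* 79.1 CPM, and 3.00% of the cells, those with 3 or more *Il1b* UMIs, held 35.9% of the *Il1b* UMIs.

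**Figure D2:**
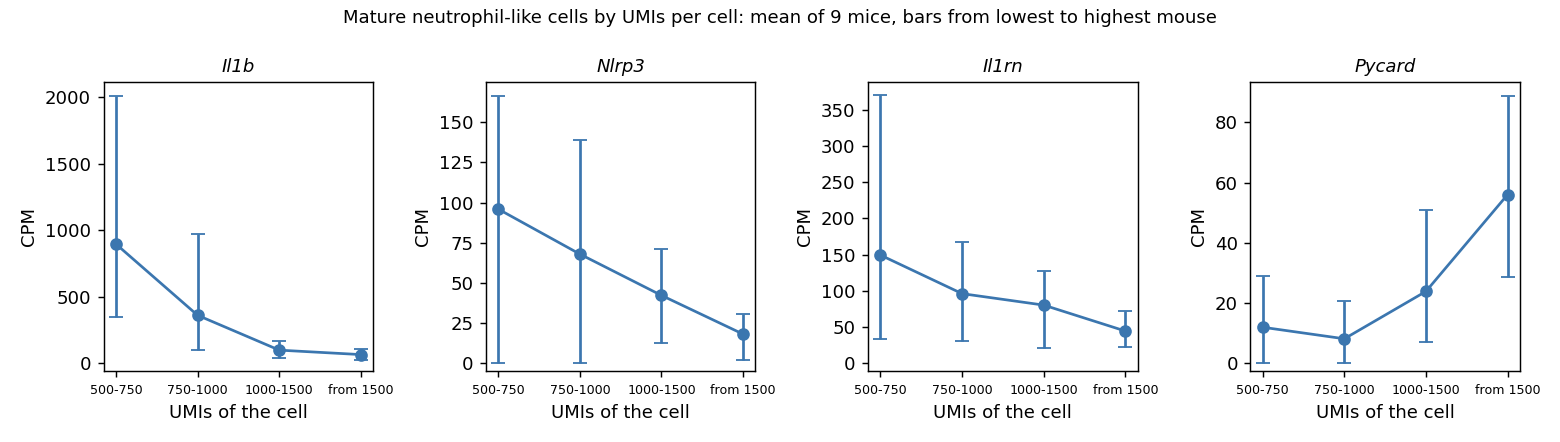
Levels of *Il1b*, *Nlrp3*, *Il1rn*, and *Pycard* (CPM, linear axes) in mature neutrophil-like cells split by the UMIs of the cell; points are means of 9 mice and bars run from the lowest to the highest mouse. *Il1b* goes from 896.5 CPM in the band of 500 to 750 UMIs to 66.2 CPM from 1500 UMIs on, and *Pycard* from 12.0 to 56.0 CPM.

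*Il18* (chr9:50554827-50581840, plus strand), the other cytokine that caspase-1 matures, was a macrophage gene in these cells. Only 4 mice had 10 or more macrophage-like cells, with 394.5 and 402.1 CPM in NZW 1 and 2 and 229.7 and 259.2 CPM in NZBWF1 2 and 3. All 4 were above their own classical monocyte-like cells (3.05 ± 0.44), and the exact p of 0.125 is the smallest that 4 mice allow. Elsewhere it had 26.5 ± 7.14 CPM in classical monocyte-like and 21.0 ± 11.8 CPM in mature B-like cells, which were not told apart (0.33 ± 0.73, exact p = 0.215), and 25.1 ± 30.9 CPM (n = 8) in nonclassical monocyte-like cells from 6 UMIs. The macrophage genes *Cbr2* (r = 0.950), *Ms4a7* (0.942), and *Igf1* (0.939) had the patterns most like it. *Bco2* and *Tex12* overlap it on the opposite strand.

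The inhibitors followed neutrophil maturation. *Il1r2* (chr1:40074079-40125231, plus strand) had 4.22 ± 3.00 CPM in promyelocyte-like, 10.5 ± 11 in dividing neutrophil precursor-like, 28.3 ± 15.2 in immature, and 54.0 ± 29.8 in mature neutrophil-like cells. The last 2 steps went up in 9 of 9 mice (0.96 ± 0.36 and 0.71 ± 0.26, each exact p = 0.00391), and the step from promyelocyte-like cells in 8 of 9 (0.40 ± 0.49, exact p = 0.0195). *Il1rn* (chr2:24336853-24351494, plus strand) had 4.29 ± 2.25, 16.8 ± 5.49, and 48.5 ± 18.8 CPM in the same precursors, immature, and mature cells, and the step into the mature class went up in 9 of 9 mice (1.08 ± 0.37, exact p = 0.00391). Outside the myeloid classes neither gene passed a mean of 1.25 CPM, leaving out the megakaryocyte-like class, which had 10 cells in only 2 mice. The pattern of *Il1rn* was most like those of *Fpr1* (r = 0.974, itself a gating marker), *Il1r2* (0.955), and *Asprv1* (0.944), and that of *Il1r2* like *Crispld2* (0.989), *Asprv1* (0.984), and *Slfn4* (0.978). *Gm37347* overlaps *Il1r2* on the same strand and *Gm16894* on the opposite strand, and only *Gm16894* is among the genes counted.

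Strains were compared with edgeR on UMIs summed per class and mouse, over all genes of each of 17 classes, and a gene was called at a Benjamini-Hochberg adjusted p under 0.05 within its class. The 9 genes passed the filter on low counts in 59 pairs of gene and class: *Pycard* in 15 classes, *Gsdmd* in 11, *Casp1* in 10, *Casp4* in 8, *Nlrp3* in 4, *Il1b*, *Il18*, and *Il1r2* in 3 each, and *Il1rn* in 2. A gene that is high in 1 strain only can pass through that strain, so the counts cover what passed and not each gene in each class. Between the parents, NZB against NZW, 11 of 59 (18.6%) were called, 7 higher and 4 lower in NZB, against 7.23% of 87579 tests over all genes (3.71% higher, 3.52% lower). NZBWF1 against NZB gave 5 (8.47%, 1 higher and 4 lower) against 2.69% (1.29% higher, 1.40% lower), and NZBWF1 against NZW gave 1 (1.69%, lower) against 0.925% (0.434% lower). NZBWF1 against the average log level of both parents gave 1 (1.69%, lower) against 0.433% (0.114% lower). The median log2 difference of the 59 tests between the parents was 0.19, beside -0.01 over all tests. These comparisons share mice, as do the classes of a gene, so they are not independent of each other. Between the parents, *Pycard* had 4 of the calls, *Nlrp3* and *Il1r2* 3 each, and *Casp1* 1. The 9 genes and the pathway lists were chosen with earlier results of these data known. Their shares of calls, here and below, are therefore not those of genes chosen without such knowledge.

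**Figure D3:**
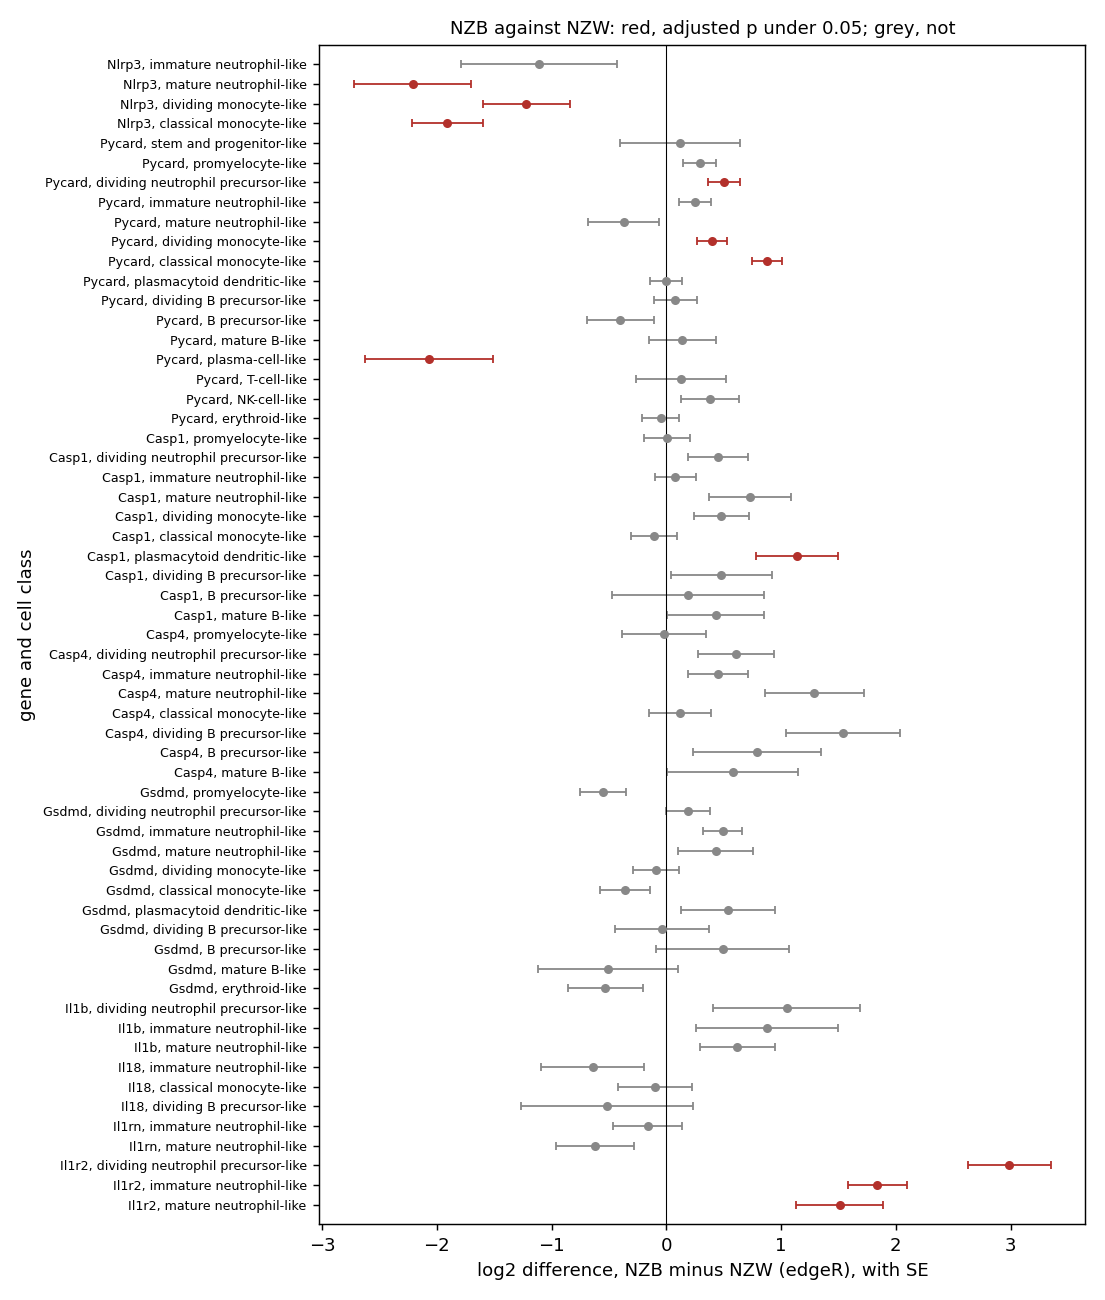
Log2 difference of NZB minus NZW (edgeR, x axis) for each of the 59 pairs of gene and cell class that passed the filter on low counts; bars are standard errors and red marks an adjusted p under 0.05. *Il1r2* lies to the right in its 3 classes (1.51 to 2.99) and *Nlrp3* to the left in its 4 (-2.21 to -1.11).

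*Nlrp3* was lower in NZB than in NZW in 3 of the 4 classes tested. In classical monocyte-like cells NZB 1, 2, and 3 had 14.9, 16.2, and 10.7 CPM, NZW 1, 2, and 3 had 50.4, 50.4, and 56.8 CPM, and NZBWF1 1, 2, and 3 had 28.4, 35.7, and 22.8 CPM. The strains did not overlap, and the hybrid lay between its parents. NZB differed from NZW by -1.91 on the log2 scale (SE 0.31, edgeR adjusted p = 6.99e-06), and the call held without each mouse in turn. The hybrid was above NZB by 1.05 (SE 0.35, adjusted p = 0.0498) and below NZW by -0.86 (SE 0.22, adjusted p = 0.0351). The first was called in only 2 of 9 fits without a mouse and lost without NZB 1, NZB 2, NZB 3, NZW 1, NZW 3, NZBWF1 1, or NZBWF1 2 (adjusted p = 0.0527 to 0.289). The second was lost without NZW 1, NZW 2, NZW 3, NZBWF1 1, or NZBWF1 3 (adjusted p = 0.0641 to 0.406). DESeq2 called neither (adjusted p = 0.213 and 0.574).

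In mature neutrophil-like cells *Nlrp3* stood at 6.87, 4.79, and 7.38 CPM in NZB, at 27.4, 39.1, and 45.3 CPM in NZW, and at 37.2, 23.4, and 20.3 CPM in NZBWF1. Each NZB mouse was below each of the other 6. The difference between the parents was -2.21 (SE 0.51, adjusted p = 0.00986), and it was lost without NZW 3 (-2.03, adjusted p = 0.0830). In cells from 500 UMIs on, the NZB mice had 28.8, 7.28, and 30.7 CPM and the NZW mice 66.9, 57.2, and 79.9 CPM, still without overlap, but the difference was smaller (-1.29, SE 0.38) and not called (adjusted p = 0.0605). It was called with these cells when the replicate number of the mice was used as a block, which the labels do not give as the design. The immature neutrophil markers summed to 75776 to 88308 CPM in this class in NZB, 42733 to 66308 in NZW, and 46649 to 57809 in NZBWF1, so the class held more of them in NZB. With cells from 500 UMIs they summed to 38973 to 59929 CPM in NZB, 27730 to 35567 in NZW, and 30882 to 33447 in NZBWF1, again without overlap of NZB with the others. The classical monocyte markers of this class were at 222.2 to 354.6 CPM in NZB, 329.0 to 1146 in NZW, and 174.5 to 944.1 in NZBWF1, with overlap. With cells from 500 UMIs they were at 137.9 to 171.6, 176.0 to 795.9, and 151.5 to 483.9 CPM, so the parents did not overlap. The part of both marker lists in the results on *Nlrp3*, *Casp4*, *Il1r2*, and *Il1rn* in this class was not tested. In dividing monocyte-like cells *Nlrp3* had 10.3, 11.8, and 7.48 CPM in NZB against 27.2, 20.8, and 25.9 CPM in NZW, again without overlap (-1.22, SE 0.38, adjusted p = 0.0230). That call was lost without NZB 2, NZB 3, NZW 1, or NZW 3 (adjusted p = 0.0592 to 0.10) and with DESeq2 (adjusted p = 0.160). Immature neutrophil-like cells went the same way without a call (-1.11, SE 0.68, adjusted p = 0.396).

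*Pycard* went the other way in monocytes. In classical monocyte-like cells the NZB mice had 423.1, 479.1, and 481.6 CPM, the NZW mice 297.7, 263.8, and 195.8 CPM, and the NZBWF1 mice 251.0, 245.5, and 237.2 CPM. NZB lay above the other 6 mice without overlap, and the hybrid lay within the range of NZW. NZB exceeded NZW by 0.88 (SE 0.13, 1.84-fold, adjusted p = 7.06e-07), and NZBWF1 was below NZB by -0.95 (SE 0.13, adjusted p = 6.08e-07). Both calls held without each mouse in turn and with DESeq2. Between NZBWF1 and NZW the difference was -0.07 (SE 0.13, adjusted p = 0.955). The hybrid was below the average log level of its parents by -0.51 (SE 0.11, adjusted p = 0.00965), a call lost without NZBWF1 2 or NZBWF1 3 (adjusted p = 0.0841 and 0.121).

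Dividing monocyte-like cells showed a smaller *Pycard* difference. NZB had 322.3, 454.3, and 497.3 CPM, NZW 322.8, 346.0, and 303.8 CPM, and NZBWF1 310.7, 257.4, and 337.3 CPM, so NZB 1 overlapped both other strains. NZB against NZW gave 0.40 (SE 0.13, adjusted p = 0.0302), lost without NZB 2, NZB 3, NZW 1, NZW 2, or NZW 3 (adjusted p = 0.0536 to 0.202). NZBWF1 against NZB gave -0.54 (SE 0.14, adjusted p = 0.00797), lost without NZB 2, NZB 3, or NZBWF1 2 (adjusted p = 0.0756 to 0.143). DESeq2 called neither (adjusted p = 0.160 and 0.0650). In dividing neutrophil precursor-like cells *Pycard* was at 77.0, 69.3, and 91.0 CPM in NZB and at 59.7, 60.0, and 56.6 CPM in NZW, without overlap. The difference was 0.50 (SE 0.14, adjusted p = 0.0181), lost without NZB 3, NZW 2, or NZW 3 (adjusted p = 0.0556 to 0.111) and with DESeq2 (adjusted p = 0.108). The summed mature neutrophil markers of this class were also higher in NZB (2161 to 2486 CPM) than in NZW (1570 to 1938 CPM), without overlap. Their part in this *Pycard* result was not tested.

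The remaining *Pycard* call, lower in NZB in plasma-cell-like cells (-2.07, SE 0.56, adjusted p = 0.0489), rested on 1 library. NZB had 31.9, 27.1, and 13.6 CPM, NZW 2 had 225.2 CPM, NZW 3 had 29.0 CPM, and NZW 1 had too few cells to enter. Without NZW 2 the difference was -0.52 (adjusted p = 0.906). It was also lost without NZB 2, NZB 3, or NZBWF1 2 (adjusted p = 0.0887 to 0.230). The mature neutrophil markers summed to 520.8 CPM in this class in NZW 2 and to 7.97 to 87.6 CPM in the other mice. The B lineage markers were lower in NZB, at 403.6 to 449.4 CPM against 502.3 to 788.3 in NZW and 517.2 to 689.4 in NZBWF1, and the part of both lists in the result was not tested. In the other 11 classes tested, the lymphoid classes, mature neutrophil-like and plasmacytoid dendritic-like cells among them, *Pycard* was not called between the parents.

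Other signals moved with the NZB monocytes. The summed level of 12 genes that respond to tissue handling, such as *Fos* and *Jun*, was 704.3 to 719.7 CPM in classical monocyte-like cells of NZB, 459.5 to 512.1 in NZW, and 472.3 to 542.3 in NZBWF1. All 12 were detected, 6 passed the filter, and 3 of those were called higher in NZB than in NZW. The summed immature neutrophil markers were 497.8 to 622.7 CPM in NZB, 348.8 to 374.6 in NZW, and 307.9 to 441.4 in NZBWF1, while the mature neutrophil markers overlapped (2026 to 2464, 1796 to 2374, and 2144 to 2262 CPM). The nonclassical monocyte markers of these cells were lower in NZB, at 270.9 to 306.2 CPM against 312.8 to 429.8 in NZW and 343.0 to 447.6 in NZBWF1. When cells from 500 UMIs entered, as for *Il1b*, they overlapped, at 314.0 to 408.6, 327.6 to 466.3, and 382.0 to 468.8 CPM. With those cells the handling genes (695.0 to 760.1, 465.4 to 510.9, and 475.4 to 547.3 CPM) and the immature neutrophil markers (494.7 to 631.3, 359.9 to 382.6, and 302.5 to 441.0 CPM) still separated NZB from the other 6 mice. Macrophage markers overlapped between the parents (103.1 to 221.5 and 160.2 to 216.4 CPM) and were at 254.8 to 266.4 CPM in NZBWF1. In dividing monocyte-like cells the mature neutrophil markers were at 1196 to 1729 CPM in NZB, 895.0 to 998.1 in NZW, and 929.6 to 1087 in NZBWF1. The handling genes, 2 of 12 without a UMI there, were at 373.9 to 537.9, 215.2 to 272.0, and 285.6 to 363.1 CPM, again higher in NZB than in the other 6 mice. The immature neutrophil markers of that class overlapped between the parents (241.7 to 603.7 and 245.2 to 275.6 CPM). The part of these signals in the results on *Nlrp3*, *Pycard*, *Il1b*, *Txnip*, and *Serpinb1a* in monocytes was not tested.

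**Figure D4:**
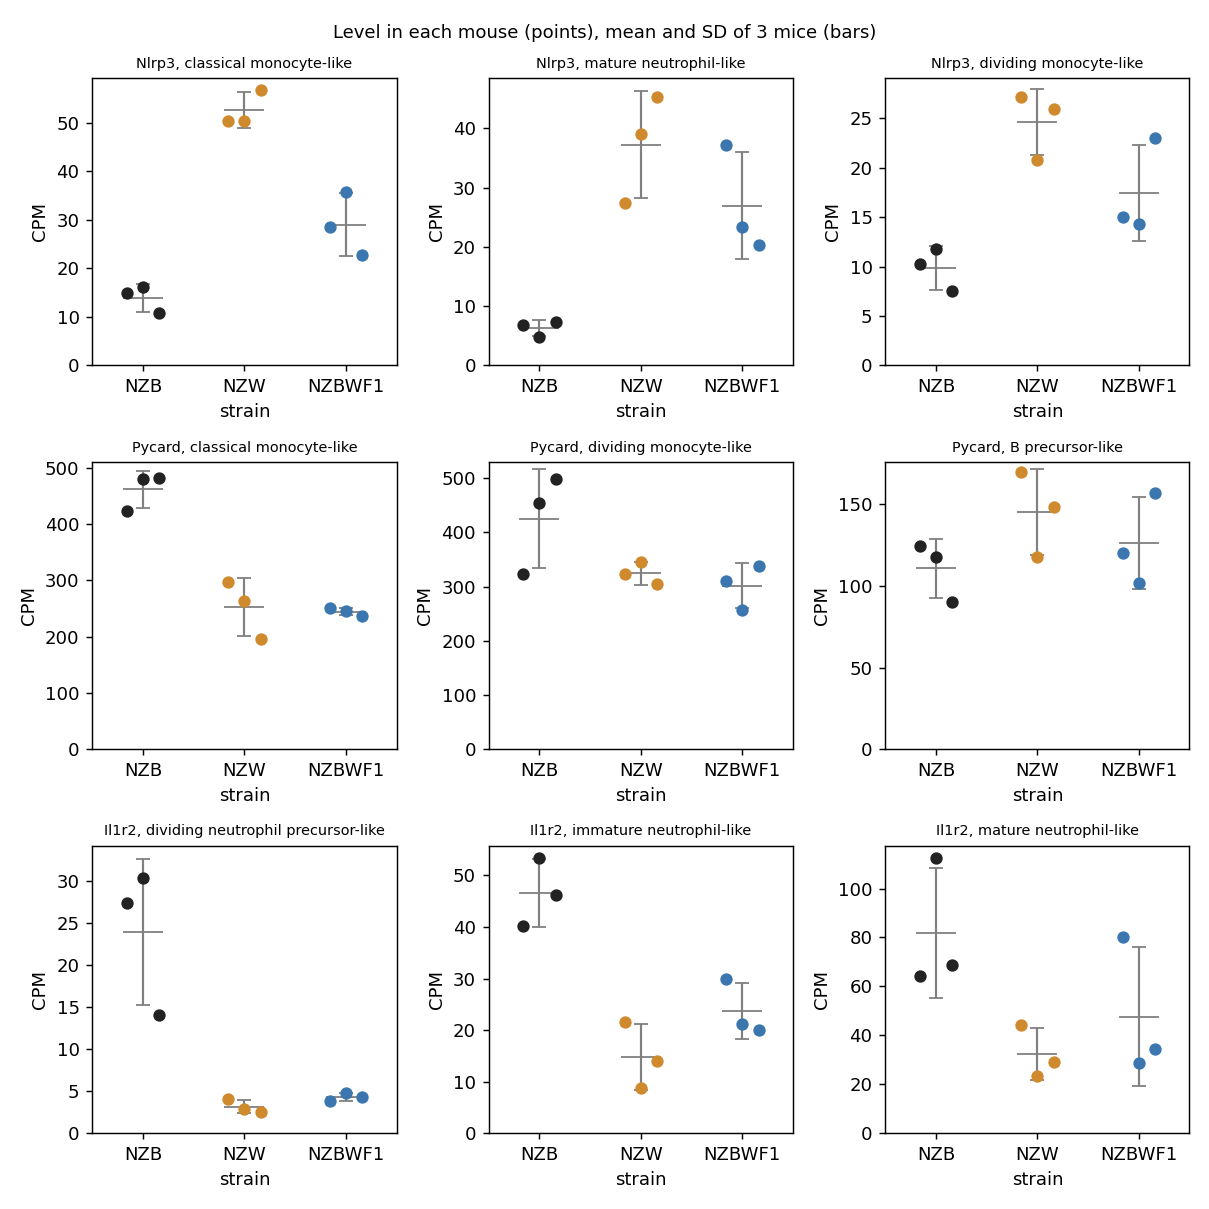
Levels of *Nlrp3*, *Pycard*, and *Il1r2* (CPM, axes from 0) in 3 cell classes each, with 1 point per mouse and the mean and SD of 3 mice per strain. The 3 NZB mice lie below the other 6 for *Nlrp3* in each class shown and above the other 6 for *Pycard* in classical monocyte-like cells, but not in B precursor-like cells.

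Of the caspases and the pore protein, 1 of 29 tests between the parents was called, beside 7.23% over all genes. *Casp1* in plasmacytoid dendritic-like cells, which make type I interferon, was at 35.6, 46.9, and 42.2 CPM in NZB, 27.1, 15.9, and 16.4 in NZW, and 18, 30.5, and 26.0 in NZBWF1. The NZB mice lay above the other 6 (NZB against NZW 1.14, SE 0.36, adjusted p = 0.0295). The call was lost without NZB 2, NZW 2, or NZW 3 (adjusted p = 0.122 to 0.169) and with DESeq2 (adjusted p = 0.250). In this class the summed classical monocyte markers were at 1527 to 1568 CPM in NZB, 1144 to 1456 in NZW, and 1344 to 1636 in NZBWF1, so the parents did not overlap. The B lineage markers were at 495.1 to 568.5, 494.9 to 888.3, and 529.9 to 636.4 CPM, with overlap, and 4 of 7 tested were called lower in NZB than in NZW. The handling genes were at 77.8 to 119.8, 58.0 to 88.6, and 91.5 to 109.3 CPM, and the part of these signals in the *Casp1* result was not tested. In classical monocyte-like cells *Casp1* had 56.3 to 90.5 CPM over the 9 mice, with overlap of the strains, and a difference between the parents of -0.11 (SE 0.20, adjusted p = 0.787). *Casp4* was at 29.8, 28.7, and 36.9 CPM in mature neutrophil-like cells of NZB, 16.9, 15.6, and 13.3 in NZW, and 11.4, 23.4, and 28.1 in NZBWF1. The NZB mice lay above the other 6, and the difference between the parents was 1.29 (SE 0.43) without a call (adjusted p = 0.0838). From 500 UMIs on, the values were 38.7, 39.5, and 40.7 in NZB, 27.1, 20.8, and 16.9 in NZW, and 18.8, 21.8, and 30.9 in NZBWF1, and the difference was called (1.16, SE 0.26, adjusted p = 0.00823), except without NZW 3 (0.96, adjusted p = 0.0777). The immature neutrophil markers, given with *Nlrp3*, also separated NZB from the other 6 mice in this class, and their part in the *Casp4* result was not tested. NZBWF1 was then below NZB by -0.99 (SE 0.25, adjusted p = 0.0357), lost without NZB 1, NZB 2, NZB 3, NZBWF1 1, or NZBWF1 2 (adjusted p = 0.0515 to 0.132).

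*Casp4* in dividing B precursor-like cells also separated NZB from the rest. It was at 16.9, 25.1, and 18.8 CPM in NZB and at 4.19 to 8.88 CPM in the other 6 mice, on 3 to 15 UMIs per mouse, with differences of 1.54 against NZW (SE 0.50, adjusted p = 0.0978) and -1.84 for NZBWF1 against NZB (SE 0.51, adjusted p = 0.113), neither called. With adjustment over all classes together both were called (edgeR adjusted p = 0.0477 and 0.0371). *Gsdmd* had 0 of 11 tests called between the parents, with 2 at an unadjusted edgeR p under 0.05 and 0 called by DESeq2. These were promyelocyte-like cells (-0.55, SE 0.20, adjusted p = 0.0699) and immature neutrophil-like cells (0.49, SE 0.17, adjusted p = 0.0997). With a looser gate, of at least 2 markers and a margin of 1, promyelocyte-like cells were called (-0.57, SE 0.19, edgeR adjusted p = 0.0429). In classical monocyte-like cells it had 49.8, 50.5, and 59.9 CPM in NZB, 73.2, 72.1, and 61.4 in NZW, and 111.3, 61.8, and 63.2 in NZBWF1. NZB lay below the other 6 there without a call (NZB against NZW -0.36, SE 0.22, adjusted p = 0.282).

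With cells from 500 UMIs, *Il1b* was called between strains in classical monocyte-like but not in mature neutrophil-like cells. A difference between these 2 classes was not called at those limits. With cells from 1000 UMIs, the NZB mice had 44.8, 10.1, and 49.2 CPM in classical monocyte-like cells, the NZW mice 3.78, 7.90, and 2.71 CPM, and the NZBWF1 mice 4.74, 8.71, and 6.21 CPM. NZB lay above the other 6, but with 78 UMIs in all the gene did not pass the filter in this class. When cells from 500 UMIs entered, NZB had 44.2, 29.4, and 58.1 CPM, NZW 3.67, 7.09, and 3.49, and NZBWF1 4.62, 12.5, and 8.01, without overlap of NZB with the others. In these cells NZB exceeded NZW by 3.11 (SE 0.39, 8.65-fold, adjusted p = 9.00e-09) and NZBWF1 was below NZB by -2.21 (SE 0.36, adjusted p = 9.17e-06), and both calls held without each mouse in turn. The other 6 mice stood at 3.49 to 12.5 CPM, so the gene could pass the filter through NZB, the strain where it was high. DESeq2 was not run with these limits. With cells from 1000 UMIs and no filter on low counts, the differences were 2.73 (adjusted p = 2.68e-08) and -2.22 (adjusted p = 9.06e-06).

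In mature neutrophil-like cells *Il1b* had 77.9, 38.3, and 115.7 CPM in NZB, 48.5, 70.4, and 66.7 in NZW, and 85.8, 122.2, and 143.8 in NZBWF1. The NZB range held all NZW values and overlapped that of NZBWF1. NZBWF1 2 and NZBWF1 3 were above all NZB mice, and each NZBWF1 mouse was above each NZW mouse. The differences were 0.62 for NZB against NZW (SE 0.33, adjusted p = 0.330) and 0.96 for NZBWF1 against NZW (SE 0.31, adjusted p = 0.706), and of the 12 tests of *Il1b* over 3 classes and 4 contrasts none was called by edgeR or DESeq2, with 2 at an unadjusted p under 0.05. Down to 500 UMIs, NZB had 537.0, 83.2, and 420.8 CPM, NZW 175.3, 106.6, and 162.6, and NZBWF1 281.9, 224.1, and 254.8, so NZB 2 was the lowest and NZB 1 the highest of all mice. Whether the strain difference itself differed between the 2 classes was tested within the mouse, over genes with enough counts in both classes together. A gene could pass this filter through the class where it was high. At the main limits *Il1b* did not pass by itself in classical monocyte-like cells. It could therefore enter through mature neutrophil-like cells, and the monocyte side of its differences rests on few counts. For NZB against NZW, mature neutrophil-like minus classical monocyte-like cells gave -2.11 (SE 0.50, adjusted p = 0.0154), where 1.25% of 6489 genes were called. For NZBWF1 against NZB it gave 2.57 (SE 0.46, adjusted p = 0.000728; 0.647% of genes called). The first was lost without NZB 1, NZB 3, or NZW 3 (adjusted p = 0.0653 to 0.201), and with cells from 500 UMIs neither was called (-1.67 and 1.55, adjusted p = 0.199 and 0.281). The same kind of test for *Pycard* gave a greater NZB against NZW difference in classical monocyte-like than in B precursor-like cells (1.25, SE 0.31, adjusted p = 0.0417; 0.697% of 8173 genes called), lost without NZB 2, NZB 3, NZW 1, or NZW 3 (adjusted p = 0.0900 to 0.290).

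**Figure D5:**
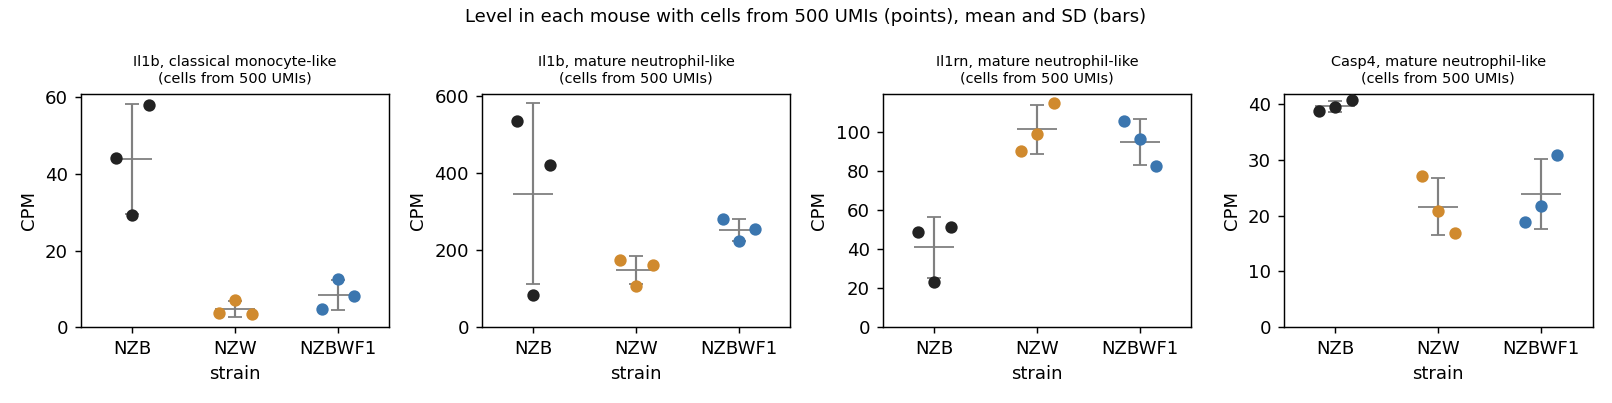
Levels with cells from 500 UMIs (CPM, axes from 0), 1 point per mouse with the mean and SD of 3 mice per strain. *Il1b* in classical monocyte-like cells is at 29.4 to 58.1 CPM in NZB and 3.49 to 12.5 CPM in the other 6 mice, while in mature neutrophil-like cells NZB spans 83.2 to 537.0 CPM.

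*Il18* was not called in its 3 classes in any contrast by edgeR or DESeq2, with 1 test at an unadjusted p under 0.05 in NZBWF1 against NZB, and in classical monocyte-like cells it ranged from 18.2 to 36.6 CPM with overlap of the strains (NZB against NZW -0.10, SE 0.32). In dividing monocyte-like cells it did not pass the filter, and stood at 12.4, 15.2, and 16.8 CPM in NZB, 3.63, 1.60, and 0 in NZW, and 3.74, 12.5, and 13.4 in NZBWF1, on 51 UMIs. NZB lay above NZW there, NZBWF1 overlapped NZB, and without the filter NZB exceeded NZW by 3.11 (SE 0.69, adjusted p = 0.000275). Too few mice had enough macrophage-like cells for a test there.

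*Il1r2*, the decoy receptor, was higher in NZB in each neutrophil class tested. In dividing neutrophil precursor-like cells NZB had 27.4, 30.4, and 14.1 CPM, NZW 4.02, 2.94, and 2.51, and NZBWF1 3.83, 4.77, and 4.34. NZB lay above the other 6 without overlap. Those 6 stood at 2.51 to 4.77 CPM, so the gene could pass the filter in this class through NZB, the strain where it was high. The difference from NZW was 2.99 (SE 0.36, 7.96-fold, adjusted p = 1.19e-07) and that of NZBWF1 from NZB -2.61 (SE 0.34, adjusted p = 3.49e-06). Both held without each mouse in turn and with DESeq2. NZBWF1 differed from NZW by 0.39 (SE 0.50, adjusted p = 0.903). In immature neutrophil-like cells NZB had 40.2, 53.4, and 46.2 CPM, NZW 21.5, 8.77, and 14.1, and NZBWF1 29.9, 21.1, and 20. NZB was again above the rest (against NZW 1.84, SE 0.26, adjusted p = 0.000383), and this held without each mouse in turn. NZBWF1 was below NZB (-1.25, SE 0.25, adjusted p = 0.0153), which was lost without NZB 2, NZB 3, NZBWF1 2, or NZBWF1 3 (adjusted p = 0.0582 to 0.111).

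In mature neutrophil-like cells *Il1r2* had 64.2, 112.6, and 68.9 CPM in NZB, 44.3, 23.5, and 29.3 in NZW, and 80.1, 28.6, and 34.4 in NZBWF1. The parents did not overlap, while NZBWF1 1 lay within the range of NZB. NZB exceeded NZW by 1.51 (SE 0.38, adjusted p = 0.0223), lost without NZB 2, NZW 2, or NZW 3 (adjusted p = 0.0895 to 0.120). With cells from 500 UMIs it was 1.56 (SE 0.28, adjusted p = 0.00299), kept without each mouse, and NZBWF1 was below NZB by -1.38 (SE 0.28, adjusted p = 0.0138), lost without NZBWF1 2 or NZBWF1 3 (adjusted p = 0.0654 and 0.0874). The immature neutrophil markers were higher in NZB than in the other 6 mice in this class with both limits on cells, by the sums given with *Nlrp3*. The strain difference rose from the mature to the precursor class by its point value (1.51, 1.84, and 2.99), but a difference between mature and immature cells was not called (-0.21, SE 0.34, adjusted p = 0.968). Mature neutrophil markers summed to 6545 to 12050 CPM in immature neutrophil-like cells of NZB, 5782 to 8165 in NZW, and 6431 to 12815 in NZBWF1, and to 2161 to 2486, 1570 to 1938, and 1640 to 2736 CPM in dividing precursors. The parents overlapped in the first and not in the second. The handling genes were at 284.6 to 333.3 CPM in immature neutrophil-like cells of NZB, 264.2 to 281.0 in NZW, and 277.6 to 282.9 in NZBWF1, without overlap of NZB with the others. The part of these markers and genes in the *Il1r2* results was not tested.

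*Il1rn*, the receptor antagonist, was at 29.8, 24.0, and 34.5 CPM in mature neutrophil-like cells of NZB, 56.9, 31.3, and 69.4 in NZW, and 74.4, 57.2, and 59.4 in NZBWF1. NZB lay below NZBWF1, and NZW 2 overlapped NZB. No contrast was called by edgeR or DESeq2 (NZB against NZW -0.62, SE 0.34, adjusted p = 0.334), with 1 at an unadjusted p under 0.05, NZBWF1 against NZB (0.81, SE 0.32, adjusted p = 0.220). With cells from 500 UMIs NZB had 48.5, 22.9, and 51.4 CPM, NZW 90.0, 98.8, and 115.0, and NZBWF1 105.7, 96.5, and 82.5, so NZB was below the other 6. There the parents differed by -0.98 (SE 0.24, adjusted p = 0.0138), lost without NZW 3 (-0.83, adjusted p = 0.103). The immature neutrophil markers of this class, at 38973 to 59929 CPM in NZB and 27730 to 35567 in both other strains, moved with it, and their part was not tested. NZBWF1 exceeded NZB by 0.87 (SE 0.24, adjusted p = 0.0474), called in only 1 of 9 fits without a mouse and lost without each mouse except NZW 2 (adjusted p = 0.0691 to 0.155). With these limits 12 of 64 tests of the 9 genes (18.8%) were called between the parents, against 7.73% over all genes, and 10 (15.6%) for NZBWF1 against NZB, against 2.97%.

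The other genes of the pathway were read from a list of 55, of which 51 are in the files and 41 passed the filter, in 285 pairs of gene and class. Between the parents 17 tests (5.96%) were called, 7 higher and 10 lower in NZB, in 12 genes, beside 7.23% over all genes. NZBWF1 against NZB had 7 calls (2.46%, beside 2.69%), and NZBWF1 against NZW and against the parents' mean had 2 each (0.702%, beside 0.925% and 0.433%). Of the other inflammasome sensors, such as *Nlrc4* and *Aim2*, 6 of 12 passed the filter. Of their 24 tests per contrast, 0 were called by edgeR or DESeq2, beside 7.23% of tests over all genes called by edgeR between the parents. At an unadjusted edgeR p under 0.05 there were 4 between the parents and 5 for NZBWF1 against NZB. NZBWF1 against NZW and against the parents' mean had 1 each. The share over all genes at an unadjusted p was not computed. Partners and brakes of the sensor had 7 of 47 tests (14.9%) called between the parents, 3 higher and 4 lower in NZB, beside 7.23% over all genes. For NZBWF1 against NZB they had 6 (12.8%, 1 higher and 5 lower), beside 2.69%, in 2 genes, *Serpinb1a* and *Txnip*. NZBWF1 against NZW gave 1 (2.13%, beside 0.925%), and NZBWF1 against the parents' mean gave 2 (4.26%, beside 0.433%), 1 higher and 1 lower.

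*Txnip*, a thioredoxin-binding protein that can bind NLRP3, was at 221.5, 113.2, and 177.7 CPM in classical monocyte-like cells of NZB, 399.8, 367.6, and 406.0 in NZW, and 329.2, 388.3, and 358.4 in NZBWF1. NZB was below the other 6 (NZB against NZW -1.22, SE 0.15, adjusted p = 7.92e-08), and the call held without each mouse. In plasmacytoid dendritic-like cells *Txnip* went the other way, with 377.1, 404.9, and 370.1 CPM in NZB against 290.0, 209.4, and 186.9 in NZW (0.80, SE 0.13, adjusted p = 3.76e-06), also held without each mouse. *Serpinb1a*, a serpin that restrains inflammatory caspases, was higher in classical monocyte-like cells of NZB (104.5, 137.5, and 89.9 CPM) than of NZW (80.7, 54.3, and 47.8 CPM; 0.90, SE 0.20, adjusted p = 0.00103), where the immature neutrophil markers were also higher in NZB (497.8 to 622.7 against 348.8 to 374.6 CPM). It was lower in NZBWF1 than in NZB in dividing neutrophil precursor-like cells (-0.67, SE 0.12, adjusted p = 0.000362), both held without each mouse. *Ninj1*, which ruptures the membrane after gasdermin D has opened it, had 13.6, 10.5, and 14.5 CPM in immature neutrophil-like cells of NZB against 24.3, 33.5, and 32.5 in NZW (-1.03, SE 0.19, adjusted p = 0.00281). The handling genes, given with *Il1r2* for this class, were higher in NZB than in the other 6 mice, and their part in the *Ninj1* difference was not tested. *P2rx7*, the ATP-gated channel upstream of NLRP3, had 17.8, 14.7, and 13.5 CPM in plasmacytoid dendritic-like cells of NZB against 42.5, 53.9, and 36.1 in NZW, without overlap (-1.48, SE 0.36, adjusted p = 0.00218), and the call was lost without NZW 2 (adjusted p = 0.0571). The part of the classical monocyte and B lineage markers, given with *Casp1* for this class, in the *P2rx7* and *Txnip* differences was not tested. *Nfkbia*, the inhibitor of NF-kB, was lower in NZBWF1 (194.1, 154.8, and 151.0 CPM) than in NZW (255.0, 218.1, and 189.2 CPM) in dividing neutrophil precursor-like cells (-0.51, SE 0.12, adjusted p = 0.0321). NZBWF1 1 overlapped NZW 3, and the call was lost without NZW 1, NZW 2, NZBWF1 2, or NZBWF1 3 (adjusted p = 0.118 to 0.370) and with DESeq2 (adjusted p = 0.121). The drop was not particular to the hybrid. NZB, at 144.5, 156.5, and 170.8 CPM, was also called lower than NZW in this class, without overlap (-0.40, SE 0.12, edgeR adjusted p = 0.0358). That call was kept in 3 of 9 fits without a mouse and lost with DESeq2 (adjusted p = 0.136).

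Reads of all strains were aligned to the mm10 reference, which comes from another strain, so differences in sequence between the strains could change how many reads of a gene were counted, and this was not tested. The precision of a value is limited by its UMIs. In simulated counts with 2-fold changes for NZB against NZW, the recovery of changed genes differed between classes. It was 128 of 194 in classical and 150 of 194 in dividing monocyte-like cells. In immature neutrophil-like cells it was 106 of 195, and in mature ones 77 of 194. The part of UMIs in these differences was not tested. The recovered shares are not those of the inflammasome and interleukin-1 genes alone.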

How the data were processed

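Libraries were made with the 10x Genomics Chromium 3' v3.1 kit and run through bcl2fastq 2.20 and Cell Ranger 3.1.0 with the mm10 reference, per the submitters' processing notes. The authors deposited whole UMI counts per gene and barcode, as filtered and raw matrices of all 9 libraries together. Whether reads were subsampled to an equal depth when the libraries were merged, and the annotation version, are not given in the sources used here. The 9 genes and all lists were chosen with earlier results of these data known.

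A cell was kept from 1000 UMIs and 500 genes on, with mitochondrial UMIs up to 10%. A cell joined a class with at least 3 of its markers and 2 more than of any other lineage, where a marker had to exceed a free RNA background estimated from barcodes under 100 UMIs. Cells over 3 times the median UMIs of their class (413) were left out in an alternative, and no doublet caller was run. UMIs were summed per class and mouse (at least 10 cells) and tested with edgeR 4.0.16 (TMM, filterByExpr, quasi-likelihood, 3 strains in 1 fit, R 4.3.3), with Benjamini-Hochberg adjustment within each class and contrast. DESeq2 1.42.0 was an alternative. Levels are CPM, with 10 added before logs. Mice within a strain are separate animals, so p-values measure the spread between animals. Other pathway genes were named as the 5 with the smallest adjusted p among the called, in each contrast. A result of this rule is not reported here. The tests were tested on simulated counts. Positions are those of GENCODE vM21, and promoter windows those of RefSeq on GRCm38.p6. UMI counts limit the precision of each level, and counting intervals were not used because mice were the unit.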

Additional observations from a re-analysis of the deposited data

Results flagged for a closer look

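These 3 results stood out because a strain difference differed between cell classes, by a test of that difference in edgeR over genes with enough counts in both classes together. For *Il1b*, the NZB against NZW difference was 2.11 log2 units lower in mature neutrophil-like than in classical monocyte-like cells (-2.11, SE 0.50, adjusted p = 0.0154). It was lost without NZB 1, NZB 3, or NZW 3 (adjusted p = 0.0653 to 0.201). For NZBWF1 against NZB the same pair of classes differed by 2.57 (SE 0.46, adjusted p = 0.000728), kept without each mouse (adjusted p = 0.000352 to 0.0496). Both rest on few monocyte counts, because at the main limits *Il1b* did not pass the filter on low counts in classical monocyte-like cells. It could enter the test through mature neutrophil-like cells, where it was high. At 500 UMIs, where *Il1b* did pass in classical monocyte-like cells, neither was called (-1.67 and 1.55, adjusted p = 0.199 and 0.281).

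For *Pycard*, the NZB against NZW difference was greater in classical monocyte-like than in B precursor-like cells by 1.25 (SE 0.31, adjusted p = 0.0417), where 0.697% of 8173 genes were called. In B precursor-like cells NZB had 124.3, 117.6, and 90.3 CPM and NZW 170.0, 117.7, and 148.2 CPM. The call was lost without NZB 2, NZB 3, NZW 1, or NZW 3 (adjusted p = 0.0900 to 0.290) and with a stricter gate (adjusted p = 0.0665), and with cells from 500 UMIs it was 1.22 (adjusted p = 0.000102).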

How the results depend on the processing

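Of 18 calls of the 9 genes, 10 were kept with DESeq2, 16 with size factors of another kind (RLE), 17 with adjustment over all classes (which also called *Casp4* in dividing B precursor-like cells in 2 contrasts and *Pycard* in plasma-cell-like cells for NZBWF1 against NZB, adjusted p = 0.0371), 16 with cells from 500 UMIs, 18 without the cells over 3 times the median, 17 after subtracting free RNA, 17 with a looser and 14 with a stricter gate, 14 of 15 with a mitochondrial maximum of 5%, and 10 to 17 without 1 mouse. No call reversed. Of 675 alternatives of 40 single calls, those of the other pathway genes included, 535 stayed on their side of the threshold and 140 fell short of it. Counts of calls, in the order NZB against NZW, NZBWF1 against NZB, NZBWF1 against NZW, and NZBWF1 against both parents, were 11, 5, 1, and 1. DESeq2 gave 6, 3, and 0 for the first 3, limits of 500 UMIs gave 10 for the second, no filter on low counts gave 2 for the third and 2 for the last, and the stricter gate 0 for the third. Without 1 mouse the counts ran from 6 to 14, 2 to 7, 0 to 1, and 0 to 2 at the main limits, and with cells from 500 UMIs the second ran from 3 to 11, with 8 or 9 in other fits, and the first fell to 7. Of genes whose strain difference differed between classes, 2 were found, 1 with the stricter gate, 1 with cells from 500 UMIs, and 1 to 2 without 1 mouse.

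For the other pathway genes the counts were 17, 7, 2, and 2. DESeq2 gave 10, 0 for the third, and 1 for the last, no filter gave 32, 11, 4, and 5, and a mitochondrial maximum of 5% gave 11 for the first and 1 for the third. Without 1 mouse they ran from 11 to 22, 3 to 8, 0 to 3, and 0 to 4. Comparisons of neighboring classes had 0 adjusted calls in each setting and 13 to 20 unadjusted ones. The mean of *Il1b* in mature neutrophil-like cells moved from 85.5 to 249.6 CPM and that of *Il1rn* from 48.5 to 79.1 CPM with cells from 500 UMIs.

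The labels tie no replicate number to a shared animal, batch, or day, and not every pair of same-numbered mice passed a correlation of deviations of 0.1. In immature neutrophil-like cells 8 of 9 pairs did (median 0.506, against -0.134 for other numbers) and 8 of 9 mice were closest to their own number, in mature neutrophil-like cells 7 of 9 pairs (0.462, against -0.182) and 7 mice, and in B precursor-like cells 6 of 9 pairs (0.329) and 6 mice. In classical monocyte-like cells 0 pairs passed (-0.0315), in promyelocyte-like cells 1 (-0.00906), and in dividing neutrophil precursor-like cells 3 (0.0545). This is a hint from the data, not the design. With the replicate number as a block the counts of the 9 genes were 13, 8, 1, and 1 (16, 11, 1, and 1 with cells from 500 UMIs), 17 of 18 calls were kept, and the other pathway genes gave 23, 10, 2, and 2. With cells from 500 UMIs the block gave all 18 main calls. Between the parents these include *Nlrp3* in mature neutrophil-like and *Pycard* in plasma-cell-like cells, which were not called with those cells without the block. At the main limits, *Nlrp3* of classical monocyte-like cells in NZBWF1 against NZB was not called with the block (adjusted p = 0.0650). Called with the block but not in the same fit without it were, between the parents, *Gsdmd* in immature (0.50, adjusted p = 0.0167) and *Casp4* in mature neutrophil-like cells (1.29, adjusted p = 0.0464), and for NZBWF1 against NZB *Casp4* in immature (-0.82, adjusted p = 0.0365), *Il1r2* in mature (-1.10, adjusted p = 0.0136), *Nlrp3* in mature neutrophil-like (1.70, adjusted p = 0.0465), and *Pycard* in plasma-cell-like cells (1.60, adjusted p = 0.0347).

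Few UMIs limit the genes of low level, and macrophage-like cells could not be compared between strains.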
